A study of Mus musculus with 12 samples.

Results

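The circadian clock genes of the neonatal mouse hypothalamus were examined in control pups and in pups exposed to modified maternal separation (MMS). The 10 genes were Per1, Per2, Per3, Cry1, Cry2, Arntl, Clock, Nr1d1, Nr1d2 and Dbp. They were taken by name from the gene column of the count table, where each had 1 row, and made up 10 of 43280 rows. The hypothalamus was dissected at postnatal day 6 from male C57/Bl6 pups, and each of 12 pups gave 1 library, 6 control and 6 MMS. On postnatal days 4 to 6, MMS pups were taken from the dam in the early afternoon and handled repeatedly while apart, being laid supine each time they had rolled over. Control pups were not put through this, and both groups came from the same litters. Each litter was reduced to a few male pups, which were assigned to the groups at random. The pups were killed directly after the last session, which by the study's schedule fell in the afternoon while the lights were on. The litter and the exact clock hour of each library were not found in the sources used here. Their part in the values was not tested. The libraries were read from the 3' end of the mRNA, and library totals were 3765759 to 6560620 counts in controls and 3218777 to 5344080 in MMS. Levels are CPM, counts relative to the library total after scaling.

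The mammalian clock is a feedback loop of transcription that runs in most cells and is set by the suprachiasmatic nucleus of the hypothalamus. CLOCK and ARNTL (also called BMAL1) bind E-box sequences as a pair and switch on the Per and Cry genes, whose proteins return to the nucleus and repress that pair. A second loop runs through the nuclear receptors NR1D1 and NR1D2, which repress Arntl, while DBP carries the rhythm to output genes through D-box sequences. Per1 is in addition an immediate responder to light, to cAMP signalling and to glucocorticoids in many tissues.

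All 10 genes were detected in each of the 12 libraries, with counts between 12 for Clock and 627 for Cry2, and all passed the count filter. None passed an adjusted p of 0.05 in edgeR's quasi-likelihood test, where the background was 0 of 13104 genes tested (0%), and none passed in DESeq2 or limma-voom. Only Per1 had an unadjusted p under 0.05, against 1190 genes of all (9.08%), of which 613 were higher in MMS (4.68%). The median log2 fold change of the 10 genes, MMS relative to control, was 0.05, with 6 higher and 4 lower in MMS, against 0.0009 over all genes tested. The control and MMS ranges overlapped for each of the 10 genes, and in 51 of all genes (0.389%) they did not. In a tissue extract, fewer cells of a type and less RNA per cell cannot be told apart.

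MMS 2 and MMS 4 stood apart from the rest of the libraries. On the first principal component, which held 30.4% of the variance, they scored 57.8 and 46.3 while the other 10 lay between -14.4 and -3.04. The summed level of 11 ependymal cilia genes was 17.2 CPM in MMS 2 and 37.2 CPM in MMS 4, compared with 83.1 to 178 CPM in the other MMS libraries and 84.4 to 183 CPM in controls. Of 12 such genes listed, 9 passed the count filter, and all 9 had a lower mean in MMS. Pan-neuronal markers summed to 5726 and 5963 CPM in MMS 2 and MMS 4, against 7018 to 8371 CPM elsewhere, and astrocyte markers to 1658 and 1699 CPM, against 1220 to 1500 CPM. By log2 fold change between the groups, each of these 2 lists had 3 markers higher and 3 lower in MMS. The sums therefore do not stand for every marker. Choroid plexus markers reached 1776 CPM in a control library, while the lowest control was at 10.95 CPM and MMS libraries at 10.6 to 15.8 CPM (exact permutation p = 0.123). Endothelial markers averaged 147 CPM in controls and 121 CPM in MMS (exact permutation p = 0.0216, adjusted over 14 lists 0.303). The 10 hypothalamic markers were all detected. Of 6 pituitary markers, 2 were at 0 throughout, and their sum was 0 to 3.80 CPM in controls and 0 to 26.95 CPM in MMS (exact permutation p = 0.312). It was 15.04 CPM in MMS 2 and 0 in MMS 4. The part of these differences in the values below was not tested. The log2 fold changes of the 10 clock genes are therefore also given without this pair. It was singled out from these data, so those values are not independent of how the libraries looked.

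In the control libraries the order of levels ran from Cry2 (83.7 CPM ± 9.16, SD, n = 6) through Nr1d1, Nr1d2, Per1, Cry1, Dbp, Per3, Arntl and Per2 to Clock (5.44 CPM ± 2.54, SD, n = 6). Because reads come from the transcript end, these levels were not divided by length. The ranges of neighbours in this order overlapped except between Cry2 and Nr1d1 and between Nr1d2 and Per1, so most adjacent ranks were not separated by the spread of the control libraries.

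**Figure D1:**
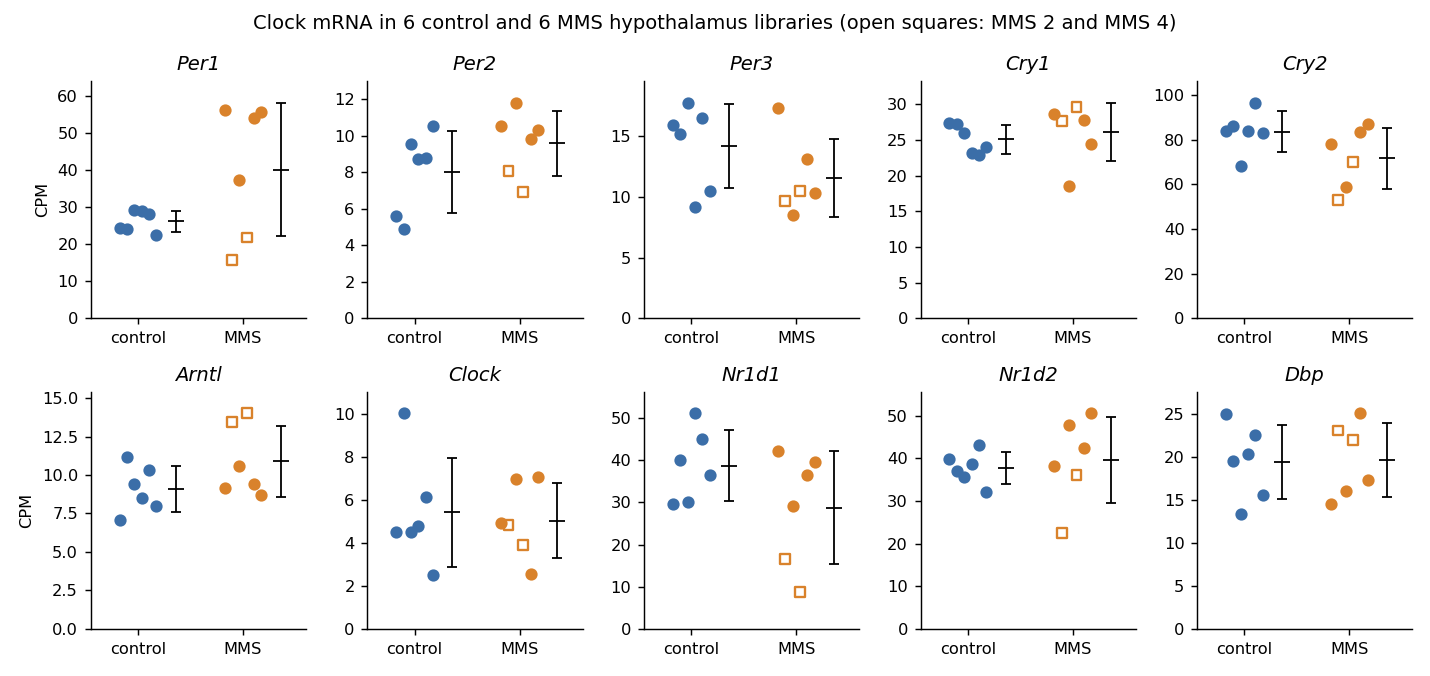
Level of each clock gene in CPM (vertical axes, linear and from 0) in every control and MMS library, with the group mean and SD as bars (n = 6) and MMS 2 and MMS 4 as open squares. Per1 shows 4 MMS libraries between 37.2 and 56.4 CPM above all controls and the open squares below them, and Nr1d1 shows the open squares below every other library.

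Per1 encodes the PER1 repressor and lies on the plus strand (mm10, chr11:69095217-69109960). Control libraries 1 to 6 measured 24.3, 24.2, 29.4, 28.9, 28.1 and 22.5 CPM. MMS libraries 1 to 6 measured 56.4, 15.8, 37.2, 21.8, 54.1 and 55.7 CPM. The MMS values thus split around a narrow control range, with MMS 1, 3, 5 and 6 above the highest control and MMS 2 and MMS 4 below the lowest. The coefficient of variation was 11% in controls and 45.02% in MMS, where counting error alone gives about 8.70% and 7.77%. The mean was 26.2 CPM ± 2.89 in controls and 40.2 CPM ± 18.1 in MMS (SD, n = 6 each), a log2 fold change of 0.61 (SE 0.26, 95% CI 0.06 to 1.16; edgeR adjusted p = 0.543). This difference did not pass the test once p-values were adjusted over all genes. The unadjusted edgeR p was 0.0553 to 0.0769 when control 1, control 2, control 6, MMS 1, MMS 5 or MMS 6 was left out, and 0.000470 without MMS 2.

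Without MMS 2 and MMS 4 the log2 fold change of Per1 was 0.96 (SE 0.14, 95% CI 0.68 to 1.24), which is 1.94-fold, with an edgeR adjusted p of 0.000447. In that fit 5 of 13407 genes passed the threshold (0.0373%). With all 12 libraries and 1 surrogate variable as a covariate it was 0.98 (SE 0.14, edgeR adjusted p = 0.000239), where 4 of the 13104 genes tested passed (0.0305%). The 4 other MMS libraries did not overlap the controls, which was also the case for 140 of all genes (1.07%). Per1 itself was lowest in MMS 2 and MMS 4, so the fit without them describes the remaining 10 libraries and does not test MMS as a whole. The surrogate variable was also drawn from these data, and its estimates were near those without the pair. Nr1d1 was -0.06 in both fits, and Arntl was 0.05 with the variable and 0.06 without the pair. The 2 fits are therefore not separate support for a difference in Per1.

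RefSeq lists 2 starts for Per1 (GRCm38.p6), and their promoters are shown because Per1 was the only one of the 10 genes past an adjusted p of 0.05 in any fit. Each run holds 250 bases before and 50 bases from the start, 5′ to 3′ on the gene's strand. Capitals mark the E-box CACGTG, the cAMP response element core TGACG and the D-box TTATGNAA.
Per1 start 1, chr11:69098699-69098998, plus strand: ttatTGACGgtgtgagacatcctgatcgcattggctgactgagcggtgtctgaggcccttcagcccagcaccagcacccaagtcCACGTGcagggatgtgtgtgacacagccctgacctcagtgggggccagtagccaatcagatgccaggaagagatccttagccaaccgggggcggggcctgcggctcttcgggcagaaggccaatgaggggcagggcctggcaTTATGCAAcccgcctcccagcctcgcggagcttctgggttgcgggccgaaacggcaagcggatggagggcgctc
Per1 start 2, chr11:69099902-69100201, plus strand: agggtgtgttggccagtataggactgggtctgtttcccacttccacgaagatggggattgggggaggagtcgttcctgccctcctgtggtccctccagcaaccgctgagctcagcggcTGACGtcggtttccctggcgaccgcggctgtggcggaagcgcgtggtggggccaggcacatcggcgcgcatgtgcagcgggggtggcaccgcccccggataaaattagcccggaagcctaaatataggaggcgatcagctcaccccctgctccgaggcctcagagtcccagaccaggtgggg
Start 1 held all 3 motifs, with the core at -246, the E-box at -166 and the D-box at -24 relative to the first transcribed base. Start 2 held the core alone, at -132. The study also measured Per1 by qPCR with the primers accactgagagcagcaagagt and ctcaggaggctgtaggcaat, which are shown because they read another part of the mRNA. Their product of 77 bases lies 4145 bases from the end of the transcript Per1-201 (4671 bases), whereas the counts used here come from transcript ends. By that qPCR the study reported higher Per1 mRNA in MMS, past its corrected threshold for a few candidate genes. It used more pups per group than were sequenced, so the measure, the pups and the threshold differ from those here.

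Per2 encodes a second PER repressor (chr1:91415982-91459324, minus strand). In controls 1 to 6 the levels were 5.60, 4.89, 9.56, 8.71, 8.79 and 10.5 CPM. In MMS 1 to 6 the levels were 10.5, 8.06, 11.8, 6.92, 9.81 and 10.3 CPM. Control 1 and control 2 were the lowest of all 12, and MMS 3 was the highest, with MMS 2 and MMS 4 the lowest of their group. Controls averaged 8.01 CPM ± 2.26 and MMS libraries 9.57 CPM ± 1.78, with a log2 fold change of 0.24 (SE 0.22, 95% CI -0.23 to 0.70, edgeR adjusted p = 0.737). Without MMS 2 and MMS 4 it was 0.39 (SE 0.24, edgeR adjusted p = 0.961). At 18 to 57 counts per library, counting error alone gave a coefficient of variation of about 15.6% in controls, against 28.1% observed.

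Per3 encodes the PER family member least needed for the rhythm itself (chr4:151003652-151044665, minus strand). The 6 control libraries, from 1 to 6, read 15.9, 15.2, 17.8, 9.17, 16.5 and 10.5 CPM. The 6 MMS libraries, from 1 to 6, read 17.3, 9.67, 8.48, 10.5, 13.1 and 10.3 CPM. Both groups held high and low libraries, and MMS 3 alone fell outside the control range. The log2 fold change was -0.29 (SE 0.21, 95% CI -0.73 to 0.14, edgeR adjusted p = 0.650), opposite in sign to those of Per1 and Per2, and -0.19 (SE 0.22) without the pair. The difference between Per family members was not tested. The Per3 promoter is shown because it was the only one of the promoters found with more than 1 D-box, in capitals.
Per3, chr4:151044616-151044915, minus strand: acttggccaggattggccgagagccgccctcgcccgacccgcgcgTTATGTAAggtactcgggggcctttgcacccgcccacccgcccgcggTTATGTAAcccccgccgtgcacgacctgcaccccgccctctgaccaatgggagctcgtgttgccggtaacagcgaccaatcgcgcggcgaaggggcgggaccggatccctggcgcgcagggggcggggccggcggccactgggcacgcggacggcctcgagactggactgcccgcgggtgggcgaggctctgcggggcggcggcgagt
The D-boxes begin at -205 and -158 and have the same letters.

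Cry1 encodes a cryptochrome, the partner of the PER proteins in repression (chr10:85131700-85185064, minus strand). Control libraries 1 to 6 measured 27.3, 27.2, 26.0, 23.1, 22.8 and 24.0 CPM. MMS libraries 1 to 6 measured 28.6, 27.7, 18.5, 29.6, 27.8 and 24.5 CPM. Cry1 had the smallest relative spread of the 10 genes in controls (coefficient of variation 8.02%, near the 8.97% given by counting error), and 4 MMS libraries were slightly above all controls while MMS 3 was below. There was no difference that passed the test (log2 fold change 0.07, SE 0.14, 95% CI -0.22 to 0.35, edgeR adjusted p = 0.890). Without MMS 2 and MMS 4 the estimate was 0.0015. Its promoter is shown as the only other one with an E-box, in capitals with the cAMP response element core.
Cry1, chr10:85185005-85185304, minus strand: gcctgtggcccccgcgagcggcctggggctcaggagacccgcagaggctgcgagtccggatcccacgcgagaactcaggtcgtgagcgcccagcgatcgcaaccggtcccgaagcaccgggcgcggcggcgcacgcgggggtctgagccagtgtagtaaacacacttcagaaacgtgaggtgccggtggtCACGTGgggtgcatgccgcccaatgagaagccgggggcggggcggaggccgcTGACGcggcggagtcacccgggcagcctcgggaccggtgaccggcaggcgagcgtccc
The E-box of Cry1 begins at -60, nearer the start than that of Per1, and the core at -8.

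Cry2 encodes the second cryptochrome and had the highest level of the 10 genes (chr2:92403646-92434043, minus strand). In controls 1 to 6 the levels were 84.0, 86.1, 68.1, 84.1, 96.7 and 83.0 CPM. In MMS 1 to 6 the levels were 78.2, 52.9, 58.8, 70.1, 83.4 and 87.3 CPM. MMS 2 and MMS 3 lay below all controls and the other 4 within their range. The log2 fold change was -0.22 (SE 0.13, 95% CI -0.48 to 0.04, edgeR adjusted p = 0.587), and -0.12 (SE 0.12) without the pair. Its exons share 295 bases with those of a transcript on the other strand, D930015M05Rik, and whether counting used strand is not stated, so its counts are uncertain to that extent.

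Arntl encodes the activator BMAL1 (chr7:113207465-113314126, plus strand). The 6 control libraries, from 1 to 6, read 7.10, 11.1, 9.39, 8.48, 10.3 and 8.01 CPM. The 6 MMS libraries, from 1 to 6, read 9.13, 13.4, 10.6, 14.01, 9.41 and 8.70 CPM. MMS 2 and MMS 4 were the highest of the 12 libraries, and the other 4 MMS libraries lay inside the control range. The log2 fold change was 0.27 (SE 0.20, 95% CI -0.14 to 0.67, edgeR adjusted p = 0.656) and 0.06 (SE 0.22) without the pair. In MMS 2 and MMS 4 Arntl was thus high where Per1 and Nr1d1 were low. It shares 33 exon bases with Gm45355 on the opposite strand.

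Clock encodes the partner of ARNTL in the activating pair and was the least abundant of the 10 genes, with 12 to 40 counts per library (chr5:76209868-76304792, minus strand). Control libraries 1 to 6 measured 4.52, 10.1, 4.53, 4.81, 6.17 and 2.53 CPM. MMS libraries 1 to 6 measured 4.92, 4.84, 6.97, 3.90, 2.55 and 7.09 CPM. All MMS values fell inside the control range, which was set by control 2 at the top and control 6 at the bottom. The log2 fold change was -0.12 (SE 0.32, 95% CI -0.79 to 0.54, edgeR adjusted p = 0.910), and it was 0.12 when control 2 was left out and 0.03 without MMS 5. Counting error alone gave a coefficient of variation of 19.5% in controls, below the observed 46.8%.

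Nr1d1 encodes REV-ERBα, the repressor of Arntl in the second loop (chr11:98767932-98775333, minus strand). In controls 1 to 6 the levels were 29.7, 39.9, 30.03, 51.1, 45.05 and 36.4 CPM. In MMS 1 to 6 the levels were 42.1, 16.7, 29.1, 8.69, 36.5 and 39.6 CPM. MMS 2 and MMS 4 were far below all others, MMS 3 was just below the lowest control, and MMS 1, 5 and 6 were within the control range. Controls averaged 38.7 CPM ± 8.45 and MMS libraries 28.8 CPM ± 13.5, a log2 fold change of -0.44 (SE 0.31, 95% CI -1.10 to 0.22, edgeR adjusted p = 0.650). Without MMS 2 and MMS 4 the estimate was -0.06 (SE 0.15), so the lower mean rested on that pair. It was -0.23 without MMS 4 alone and -0.32 without MMS 2 alone.

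The 3' end of Nr1d1 lies over that of Thra, a thyroid hormone receptor gene on the opposite strand, with 263 shared exon bases. Thra was more abundant, at 1094 to 1566 CPM, with a log2 fold change of 0.10 (SE 0.10) that missed the threshold (edgeR adjusted p = 0.737). It stood at 1094 CPM in MMS 2 and at 1217 CPM in MMS 4, the latter inside the control range of 1156 to 1387 CPM. Because the strand used in counting is not known, the Nr1d1 values may hold reads of Thra, and their share was not tested.

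Nr1d2 encodes REV-ERBβ, the close relative of REV-ERBα (chr14:18204054-18239127, minus strand). The 6 control libraries, from 1 to 6, read 39.8, 37.0, 35.7, 38.7, 43.2 and 32.0 CPM. The 6 MMS libraries, from 1 to 6, read 38.2, 22.6, 47.8, 36.2, 42.4 and 50.6 CPM. MMS 2 was the lowest and MMS 6 the highest of the 12, while MMS 4, lowest for Nr1d1, was inside the control range. There was no difference that passed the test (log2 fold change 0.06, SE 0.16, 95% CI -0.26 to 0.39, edgeR adjusted p = 0.904). It was 0.24 (SE 0.13, edgeR adjusted p = 0.961) without the pair and -0.01 when MMS 6 was left out.

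Dbp encodes a D-box binding activator and is an E-box driven output of the loop (chr7:45705088-45710203, plus strand). Control libraries 1 to 6 measured 25.0, 19.6, 13.4, 20.4, 22.5 and 15.6 CPM. MMS libraries 1 to 6 measured 14.5, 23.1, 16.05, 22.0, 25.1 and 17.4 CPM. The groups covered almost the same range, and MMS 2 and MMS 4 were not set apart. The means were 19.4 CPM ± 4.29 and 19.7 CPM ± 4.28, with a log2 fold change of 0.03 (SE 0.18, 95% CI -0.35 to 0.41, edgeR adjusted p = 0.962) whose sign was negative without the pair (-0.07, SE 0.19). Dbp shares 539 exon bases at its 3' end with Sphk2, a sphingosine kinase gene on the opposite strand. Sphk2 measured 20.2 CPM in both MMS 2 and MMS 4, against 42.6 to 69.4 CPM in the other 10 libraries, so Dbp was not low where the gene it overlaps was.

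**Figure D2:**
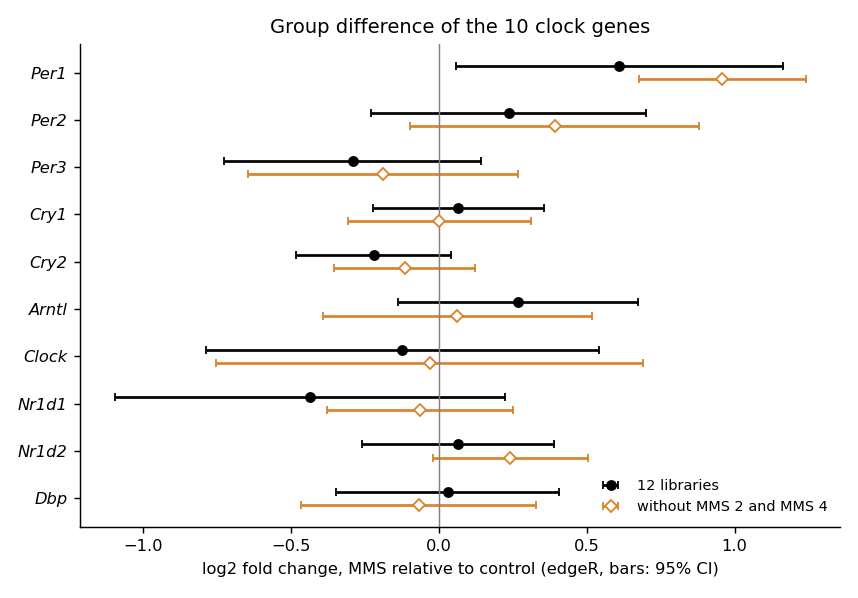
Log2 fold change of each clock gene, MMS relative to control (horizontal axis), with 95% confidence intervals from edgeR for all 12 libraries (black circles) and without MMS 2 and MMS 4 (open diamonds). With 12 libraries the interval of Per1 (0.06 to 1.16) is the only one that leaves out 0, and without the pair it is again the only one (0.68 to 1.24).

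Set beside each other in MMS 2 and MMS 4, the loop genes differed in direction. Per1 and Nr1d1 were lower in both than in each of the other 10 libraries, and Arntl was higher in both. No such position was shared by the pair for the other 7 clock genes. Genes of the pathway beyond these 10, such as Tef and Ppp1cb, also had it. The share of all genes with such a position was not counted, so it is not read as a trait of the loop. Among the other 10 libraries, log2 levels of the 45 pairs of clock genes were correlated, and Pearson's r ran from -0.50 to 0.70, with 21 pairs negative. The highest were Per3 with Cry1 (r = 0.70, permutation p = 0.0166; rho = 0.54, permutation p = 0.115) and Cry2 with Nr1d1 (r = 0.66, permutation p = 0.0347; rho = 0.62, permutation p = 0.0604). After adjustment over the 45 pairs none passed (smallest adjusted permutation p = 0.736 for r and 0.791 for rho). Without the 2 libraries farthest from the median of the first gene of each pair, r was 0.38 and 0.23. Leaving out extreme libraries narrows the range and can by itself lower r. This therefore does not settle whether the relations rested on those libraries.

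**Figure D3:**
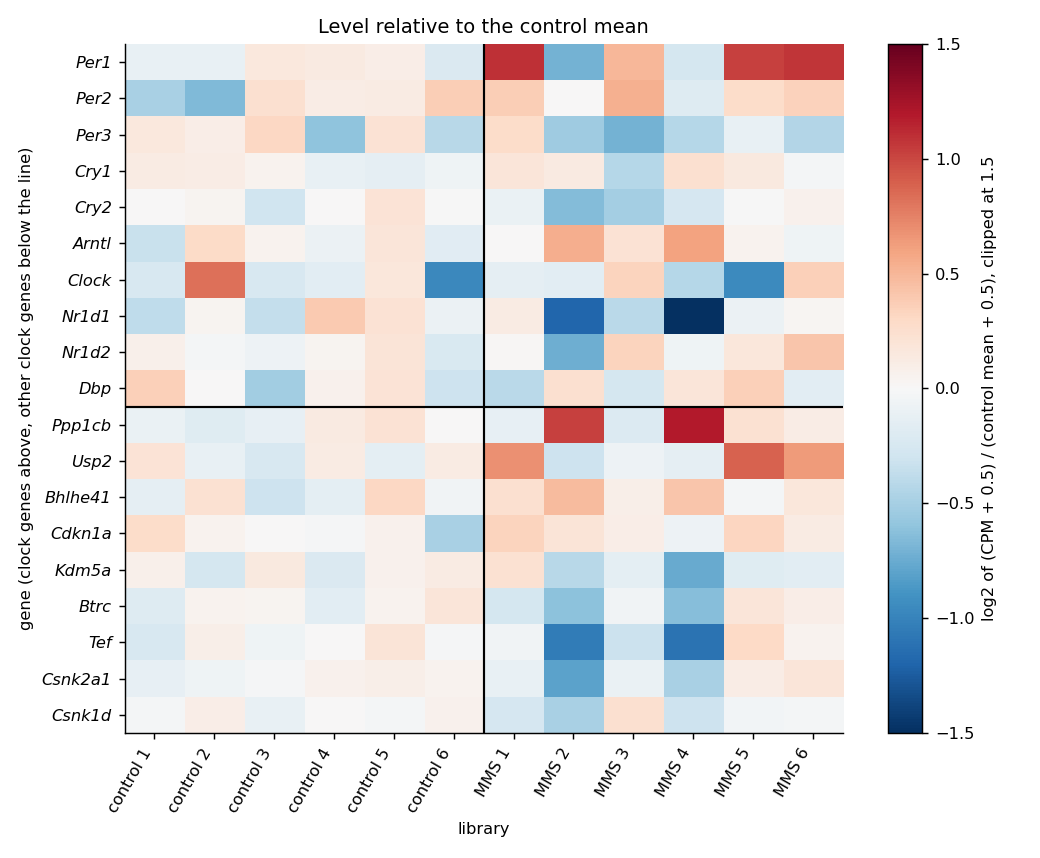
Log2 ratio of each library's level to the control mean, with 0.5 CPM added to both (colour, clipped at 1.5), for the 10 clock genes above the line and 9 further genes of the pathway below it, by library. Per1 is high in MMS 1, 3, 5 and 6, and in MMS 2 and MMS 4 Nr1d1 and Tef are low while Arntl and Ppp1cb are high, with Nr1d1 in MMS 4 beyond the clipped range.

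Beyond the 10 genes, 34 further genes of the clock pathway were listed, of which 31 passed the count filter. Their median log2 fold change was 0.02, with 17 higher and 14 lower in MMS. None passed an adjusted p of 0.05. Of the 31, 2 had an unadjusted p under 0.05, against 1190 of all 13104 genes tested (9.08%). Ppp1cb, 1 of those 2, is described here. By role, the paralogs of the activators and repressors had 3 of 5 higher, the ROR loop 2 of 3, the D-box factors 1 of 2, the kinases, phosphatase and ubiquitin ligases 5 of 10, the chromatin and RNA cofactors 3 of 8, and the output genes 4 of 4. Usp2 counts in both the enzyme and the output list.

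Ppp1cb, a catalytic subunit of the phosphatase that acts on PER proteins, was 149 CPM in MMS 2 and 166 CPM in MMS 4 against 63.0 to 84.9 CPM in the other 10 libraries. Its log2 fold change of 0.48 (SE 0.22; in edgeR, adjusted p = 0.544) was 0.02 without the pair.

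Usp2, a deubiquitinase that acts on clock proteins and is itself rhythmic, followed the Per1 pattern in part. In controls 1 to 6 the levels were 59.4, 47.6, 43.8, 56.4, 46.4 and 56.0 CPM. In MMS 1 to 6 the levels were 83.6, 41.4, 49.1, 46.8, 95.3 and 80.8 CPM. MMS 1, 5 and 6 were above all controls, as for Per1, and MMS 3 was not. The log2 fold change was 0.36 (SE 0.19; in edgeR, adjusted p = 0.563), and 0.59 (SE 0.14, edgeR adjusted p = 0.240) without the pair, where 674 genes (5.03%) had an unadjusted p under 0.05. Per1, Usp2 and Cdkn1a were the genes of all clock lists at that level in the fit without the pair.

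The other genes named by rank of p had edgeR adjusted p-values of 0.613 to 0.708. Bhlhe41 (log2 fold change 0.24), an E-box repressor, and Cdkn1a (0.17), a cell cycle inhibitor under clock control, were higher in mean. Bhlhe41 was higher in MMS 2 (27.4 CPM) and MMS 4 (26.2 CPM) than in all other libraries, and its estimate was 0.13 without them, while that of Cdkn1a was 0.23. Kdm5a (-0.22), a histone demethylase cofactor of the activators, Btrc (-0.18), a ubiquitin ligase subunit for PER proteins, Tef (-0.27), a D-box factor related to DBP, and the kinases Csnk2a1 (-0.17) and Csnk1d (-0.13) were lower in mean. For these last 5 both MMS 2 and MMS 4 lay below all other libraries. Tef was 80.9 and 77.5 CPM in that pair against 134 to 206 CPM elsewhere, and without the pair its log2 fold change was 0.02. Without it Kdm5a was -0.05 and Csnk1d -0.0058, and Btrc and Csnk2a1 turned in sign, at 0.0054 and 0.03.

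**Figure D4:**
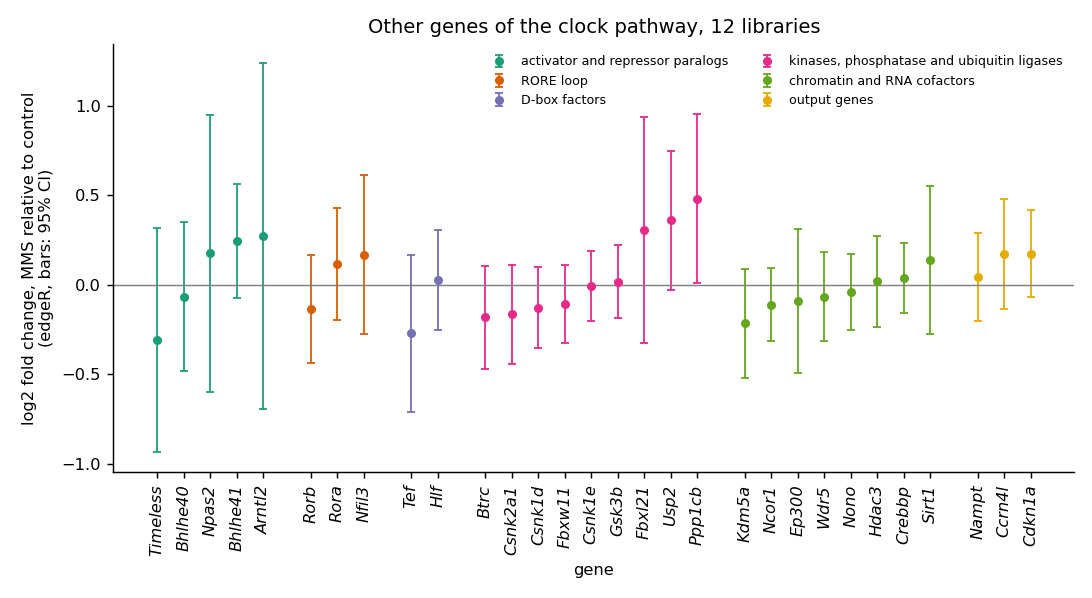
Log2 fold change, MMS relative to control (vertical axis), with 95% confidence intervals from edgeR for 30 further clock pathway genes tested in 12 libraries, coloured by role. Of those drawn, only the interval of Ppp1cb leaves out 0, and Usp2 is drawn with the enzymes.

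The suprachiasmatic nucleus is a small part of the dissected tissue, so its markers were read beside the clock genes. Of 15 markers, 11 passed the count filter, with 6 higher and 5 lower and a median log2 fold change of 0.04. The summed level of the 15 was 602 to 1017 CPM in controls and 622 to 1198 CPM in MMS, so the groups overlapped (exact permutation p = 0.426, two-sided). In controls most of that sum, 757 CPM in mean, came from Zfhx3 (250 CPM), Avp (204 CPM) and Six3 (125 CPM). Vip averaged 4.00 CPM there, so the sum says little of the scarcer markers. Vip, the peptide of the light-receiving core, ran from 0 to 57 counts per library, with a log2 fold change of -0.56 (SE 0.98; in edgeR, adjusted p = 0.867) that was 0.01 (SE 1.03) without MMS 2 and MMS 4. Avp, the peptide of the shell that other hypothalamic neurons also make, was 94.5 to 420 CPM in controls and 129 to 577 CPM in MMS (log2 fold change 0.57, SE 0.49, edgeR adjusted p = 0.715, and 0.85 without the pair). Lhx1, a transcription factor of the nucleus named here after its values were seen, was the only marker with an unadjusted p under 0.05 (log2 fold change -0.50, SE 0.20, edgeR adjusted p = 0.543), and it was -0.32 (SE 0.20) without the pair. That is 1 of 11 markers tested, near the 9.08% of all genes at that level. Vip was thus uneven between libraries of both groups, and its part in the clock values was not tested.

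Of 11725 genes with a mean of at least 20 counts, the 5 whose log2 levels were most like those of Per1 over the 12 libraries were Lfng (Pearson's r = 0.89), Dhx40 (0.88), Egr1 (0.87), Txndc9 (0.86) and Usp2 (0.84). MMS 2 and MMS 4 weigh on these values, and over the other 10 libraries r was 0.79 to 0.91. The 5 genes were picked for a high r over libraries that include those 10, so this range is not a separate check. Egr1, an activity-induced transcription factor, was 16.6 to 29.6 CPM in controls and 25.1 to 48.0 CPM in the 4 other MMS libraries, and 20.2 and 18.1 CPM in MMS 2 and MMS 4. Over all 12 libraries the log2 fold change of Egr1 was 0.56 (SE 0.23), short of the threshold (edgeR adjusted p = 0.543). Within the 10 clock genes Nr1d2 was the most like Per1 (r = 0.72, rank 86), ahead of Per2 (r = 0.53, rank 1026) and Nr1d1 (r = 0.49, rank 1422).

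Promoters were found for 9 of the 10 genes, not for Per2, and came to 13 because some genes have several starts. The motifs were searched on both strands. The E-box CACGTG was in the promoters of 2 of 9 genes, Per1 and Cry1, and in 7.15% of 32851 promoters of the same length. The D-box TTATGNAA was in those of 2 genes, Per1 and Per3, against 3.38% of all promoters. The cAMP response element core TGACG was in those of Per1, Cry1 and Cry2 (20.8% of all promoters), while the full element TGACGTCA, which contains it, and the glucocorticoid receptor motif AGAACA were in none (1.79% and 19.0% of all promoters). The ROR element core AGGTCA, the letters read by the REV-ERB and ROR receptors, was in those of 4 genes, Per1, Arntl, Clock and Nr1d2 (16.3%). A gene was counted if any of its promoters matched, while the shares are per promoter, so the counts and shares are not in like units. These are matches of letters in short windows, and no match says only that the letters are not in that window.

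**Figure D5:**
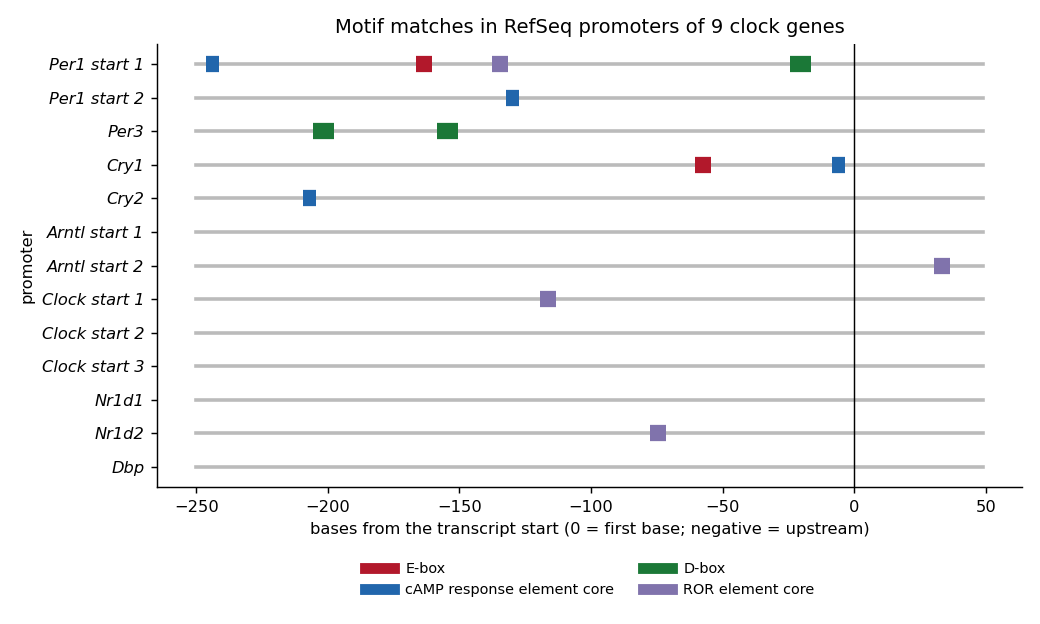
Positions of motif matches in the 13 promoters of 9 clock genes, in bases from the transcript start (horizontal axis), with 1 grey line per promoter and the motif kind as colour. Per1 start 1 holds 4 kinds of motif, and the promoters of Nr1d1 and Dbp hold none.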

How the data were processed

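Pup hypothalamus RNA was made into QuantSeq 3' libraries and sequenced on an Ion Proton instrument. The authors aligned reads to mm10 in Torrent Suite and deposited raw counts per gene, neither normalised nor pooled. How reads were assigned to genes (tool, strand, annotation) is not given in the sources used here. Libraries were grouped by their titles. Reads carry no molecular identifiers, so counting errors cover counting only, and p-values measure the spread between pups, littermates among them.

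Genes were tested with edgeR 4.0.16 in R 4.3.3 (quasi-likelihood, robust, TMM scaling, minimum count 10, minimum total 15), two-sided, with Benjamini-Hochberg adjustment over the 13104 genes tested, which held 99.6% of counts. CPM used the same scaling. On simulated data the fit was tested first. DESeq2 1.42.0, limma 3.58.1 (voom) and sva 3.50.0 gave alternatives, and single values had exact permutation tests in scipy 1.17.1. Correlations of pairs used 100000 permutations. Within groups, 30 library pairs differed beyond sampling noise (chi-square per degree of freedom 4.04 to 31.5), so none was merged.

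The clock genes, the further lists and the pair MMS 2 and MMS 4 were chosen with earlier results of these data known. Named beside the 10 genes were, of the other clock genes, those among the 10 with the smallest p, Vip and Avp, and the 5 genes most like Per1, the clock gene with the smallest p, by correlation. Counts over the further list cover all its genes, some of which are not reported here. Coordinates are from GENCODE M21 (GRCm38, the same build as mm10) and promoters from RefSeq. Of the count rows, 27 bore dates in place of symbols and held 0.175% of counts.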

Additional observations from a re-analysis of the deposited data

How the results depend on the processing

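The 10 clock genes were refitted under 23 alternatives, 12 of which left out 1 library, and of 227 log2 fold changes 214 kept their direction and side of the threshold, 11 turned in sign and 2 passed the threshold. Those 2 were Per1, so that 1 clock gene passed an adjusted p of 0.05 with 1 surrogate variable and 1 without MMS 2 and MMS 4, against 0 in the main test. With limma-voom, Nr1d1 (-0.64) and not Per1 had an unadjusted p under 0.05. Over all alternatives the log2 fold change of Per1 ran from 0.44 (limma-voom) to 0.98. Clock genes at an unadjusted p under 0.05 numbered 0 to 2 when 1 library was left out, the 2 being Per1 and Cry2 without control 3 (Cry2 -0.27). Over all genes tested that number ran from 700 of 13271 without MMS 2 to 1804 of 13230 without MMS 5. Without control 3 it was 898 of 13193. Of the further clock genes, 2 at that level became 1 with limma-voom and 1 with its quality weights, and 0 to 4 when 1 library was left out (0 without control 2, 4 without MMS 3). Of all 13104 genes, 1190 were at that level in the main test, 1354 with limma-voom and 801 with its quality weights. It was 1113 of 13296 without control 2 and 1293 of 13291 without MMS 3.

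The sign of Dbp turned with quality weights (-0.0072), the surrogate variable (-0.0607) and without the pair (-0.0691), and ran from -0.0603 to 0.12 with 1 library left out. Cry1 was -0.0055 with the surrogate variable. With 1 library left out Clock ran from -0.26 to 0.12 and Nr1d2 from -0.0138 to 0.19. With the surrogate variable and without the pair, in that order, Btrc was 0.0163 and 0.0054, Tef 0.0236 and 0.0165, and Csnk2a1 0.0455 and 0.0287. The cause was not tested. Per2, Arntl and Clock were not tested under a mean of at least 50 counts.

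Same-numbered control and MMS libraries correlated at -0.05 to 0.12, so numbers were not taken to pair pups. With the number as a replicate block, 0 clock genes and 1 further clock gene had an unadjusted p under 0.05, against 1224 of all 13104 genes. The log2 fold change of Per1 was then 0.50 (SE 0.25). Only controls 1 and 2 correlated best with their own number. Clock and Per2 had the fewest counts, 12 to 57 per library, and so the largest counting error of the 10 genes.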
